A study of Mus musculus with 9 samples.

Results

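The aminoacyl-tRNA synthetases, the enzymes that join each amino acid to its transfer RNA (tRNA), were followed in mouse leukemic and normal bone marrow progenitors. The members are 36 genes of the 16537 in the deposited RNA-sequencing table, chosen by gene symbol and not by any measured value. They were listed as 49 of the 21388 transcripts, and transcripts were summed by gene. Of the members, 20 encode cytosolic enzymes and 16, whose symbols end in 2, encode mitochondrial enzymes. All 36 passed the filter on low counts.

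The leukemic progenitors (LP) came from PML-RAR mice, which carry the fusion of the promyelocytic leukemia protein with retinoic acid receptor alpha that occurs in acute promyelocytic leukemia. They were taken in a median phase and in an early phase of the disease, with 3 libraries each. The hematopoietic progenitor cells (HPC) came from wild-type mice at postnatal day 42, with 3 libraries. All mice were of the FVB/NJ strain, and all cells were sorted from bone marrow. The sources used here name neither the promoter that drives PML-RAR nor the age of the LP mice nor the markers used for sorting, so leukemia, age and the sorted cell type cannot be told apart. Whether replicate libraries stem from different animals is not stated, so p-values here describe library-to-library spread, part of which may be technical.

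A cell needs a full set of synthetases in each place where it makes protein. The cytosolic enzymes serve the ribosomes that translate nuclear messages, and several of them sit together in a multisynthetase complex held by scaffold proteins. The mitochondrial enzymes are also encoded in the nucleus, are imported, and serve the few proteins that the mitochondrial genome encodes. Gars (glycine) and Kars (lysine) each supply both compartments, Eprs joins both glutamate and proline, and Farsa and Farsb are the alpha and beta subunits of the cytosolic phenylalanine enzyme. When charged tRNA runs short, the kinase Gcn2 (Eif2ak4) is activated and the transcription factor Atf4 is translated, and several cytosolic synthetase genes are known targets of Atf4.

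Levels are given in FPKM, fragments scaled to transcript length in kilobases and to library size in M (mega), and so can be compared between genes. Fold changes are log2 values ± SE from edgeR's quasi-likelihood test on the deposited estimated counts, with adjusted p-values by the Benjamini-Hochberg method over all 12837 genes tested, two-sided. A gene was called where the adjusted p was under 0.05. Deposited totals were 21.9 to 25.8 M counts per library. The 10 stem and progenitor markers summed to 38.6 to 42.9 FPKM in median LP and 42.5 to 43.7 FPKM in early LP, against 286 to 346 FPKM in HPC. Cd34, a surface protein of early progenitors, averaged 0.454 ± 0.0905 FPKM in median LP and 1.15 ± 0.11 FPKM in early LP, against 94.5 ± 15.4 FPKM in HPC (SD, n = 3 each). The 9 promyelocyte markers summed to 20131 to 23229 FPKM in median LP and 24794 to 29280 FPKM in early LP, against 8991 to 10182 FPKM in HPC. The 8 neutrophil markers summed to 61336 to 65290 FPKM in median LP and 45788 to 59680 FPKM in early LP, against 11920 to 18539 FPKM in HPC, and the 7 monocyte markers to 9468 to 9959 FPKM in median LP and 10871 to 11193 FPKM in early LP, against 877 to 1050 FPKM in HPC. Within these lists the genes were split, with 2 neutrophil markers higher and 4 lower, and 4 monocyte markers higher and 3 lower, in median LP. In early LP, 2 neutrophil markers were higher and 2 lower, and 3 monocyte markers were higher and 3 lower. The 11 erythroid markers summed to 365 to 552 FPKM in median LP and 47.0 to 56.0 FPKM in early LP, against 2138 to 2658 FPKM in HPC. Of the 10 erythroid markers tested, 9 were lower in median LP and 10 in early LP; the exception was the globin gene Hba-a1, which made up most of the median LP sum, at 331 to 512 FPKM in median LP and 7.08 to 16 FPKM in early LP, against 53.5 to 99.1 FPKM in HPC. The 6 megakaryocyte markers summed to 2.56 to 2.98 FPKM in median LP and 3.12 to 4.29 FPKM in early LP, against 76.7 to 114 FPKM in HPC. The sums of 5 dendritic and of 5 basophil and mast cell markers were also lower in every LP library than in any HPC library, and that of 7 B cell markers was higher. Of the 5 B cell markers tested, 3 were higher and 2 lower in median LP, and 2 were higher and 2 lower in early LP. The 10 cycling markers summed to 908 to 978 FPKM in median LP and 981 to 1015 FPKM in early LP, against 1127 to 1246 FPKM in HPC. No marker of these lists was at 0 in every library of a group, whereas 2 of 6 T and NK cell markers were in early LP and in HPC. The cells labelled LP thus carried promyelocyte, neutrophil and monocyte transcripts and little Cd34, and the part of cell type in the synthetase differences was not tested. In such bulk libraries, fewer cells of a type and less RNA per cell cannot be told apart.

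Against HPC, the cytosolic and mitochondrial synthetases were called in different proportions of higher and lower. In median LP, 10 of the 20 cytosolic genes were higher, 6 were lower and 4 were not called, while 2 of the 16 mitochondrial genes were higher, 9 were lower and 5 were not called. Of all genes tested, 36% were called higher and 37.7% lower in this comparison. In early LP, 8 cytosolic genes were higher, 6 lower and 6 not called, while 1 mitochondrial gene was higher, 10 were lower and 5 were not called, beside 35.3% of all genes called higher and 37.9% lower. With 73.8% of all genes called in median LP and 73.2% in early LP, a call alone sets a synthetase apart from few other genes. The median log2 fold change of the cytosolic genes was 0.16 in median LP and 0.10 in early LP, that of the mitochondrial genes was -0.47 and -0.42 in the same order, and that of all genes was -0.04 in both. The changes were small: Aars alone was called higher by at least 2-fold, in both LP groups, and no member was called lower by that much. By the same 2-fold rule, 16.2% of all genes were called higher and 14.5% lower in median LP, and 15.6% higher and 14.2% lower in early LP. Leaving out early LP replicate 3 left 5 cytosolic rises in early LP, and leaving out HPC replicate 3 gave 2 mitochondrial rises there, the second being Lars2. Tested on log2(FPKM + 1) with limma, 5 cytosolic genes were higher in early LP. Both comparisons use the same HPC libraries, so their calls are not independent of each other.

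**Figure D1:**
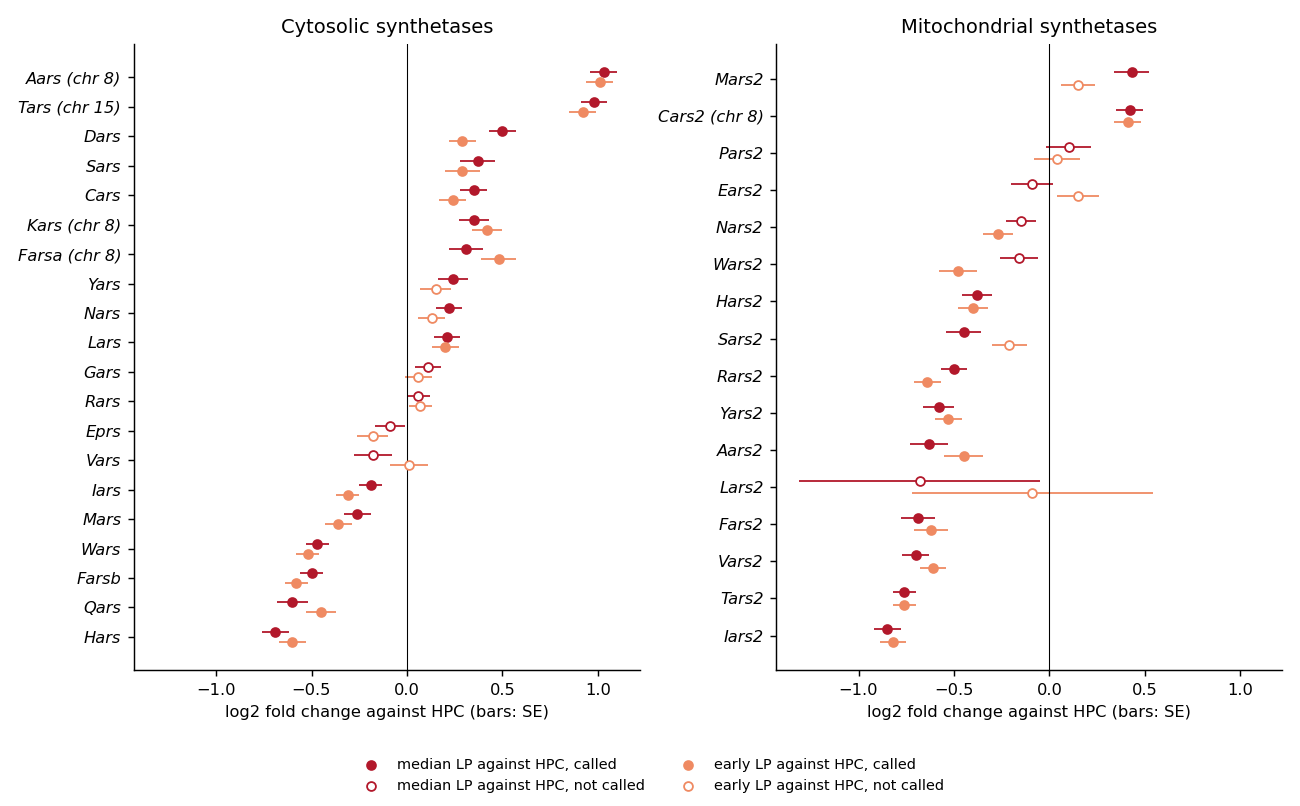
Log2 fold change of each synthetase gene in median LP (dark red) and early LP (orange) against HPC, with SE bars and filled points for called genes, in order of the median LP value. The cytosolic genes range from -0.69 to 1.03 in median LP and from -0.60 to 1.01 in early LP, and most mitochondrial genes lie below 0, with Cars2 and Mars2 called above it in median LP and the wide bar of Lars2 crossing it in early LP.

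The largest rises were those of Aars and Tars, the cytosolic enzymes for alanine and threonine. Aars had 50.4, 42.9 and 41.7 FPKM in median LP and 41.2, 45.8 and 47.5 FPKM in early LP, against 22.7, 22.9 and 22.8 FPKM in HPC. Every LP library lay far above every HPC library, and the log2 fold change was 1.03 ± 0.07 in median LP (adjusted p = 5.4e-08) and 1.01 ± 0.07 in early LP (adjusted p = 6.63e-08). Tars had 68.3, 60.3 and 59.6 FPKM in median LP and 60.1, 59.4 and 64.0 FPKM in early LP, against 33.6, 32.5 and 32.6 FPKM in HPC. The groups again did not overlap, with log2 fold changes of 0.98 ± 0.07 in median LP (adjusted p = 7.35e-08) and 0.92 ± 0.07 in early LP (adjusted p = 1.36e-07). The locus of Aars overlaps that of Exosc6 in the table. In HPC, Aars stood 19th of the 20 cytosolic genes by mean FPKM and Tars 14th, whereas in median LP they stood 10th and 6th and in early LP 11th and 6th.

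The promoters of these genes are shown because Aars, Tars and Iars hold the same pair of short motifs, and Gars and Yars hold 1 of them. The motifs were searched on both strands in 300 bases around each RefSeq start, from 250 before it to 50 after the start, in build GRCm38.p6. The letters were TGATGNAA, the element bound by dimers of C/EBP and ATF factors, CACGTG, the E-box bound by Myc and its relatives, and the interferon-stimulated element, which is GAAA, any 2 bases and GAAA. Sequences run 5′ to 3′ on the gene's strand, and capitals mark a match to any of these in either orientation. RefSeq starts can differ from those of the deposited transcripts. The deposited Aars locus starts at 111033967, past the end of the window shown. The deposited Yars locus starts at 129189795, inside the window but before the RefSeq start.
Aars, chr8:111033592-111033891, plus strand: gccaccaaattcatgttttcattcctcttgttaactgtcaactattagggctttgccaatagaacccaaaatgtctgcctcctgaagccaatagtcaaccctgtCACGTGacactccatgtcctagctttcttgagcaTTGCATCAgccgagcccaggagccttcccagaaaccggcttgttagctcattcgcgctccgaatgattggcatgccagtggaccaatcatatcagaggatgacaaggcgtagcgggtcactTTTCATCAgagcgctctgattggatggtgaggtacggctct
Tars, chr15:11399609-11399908, minus strand: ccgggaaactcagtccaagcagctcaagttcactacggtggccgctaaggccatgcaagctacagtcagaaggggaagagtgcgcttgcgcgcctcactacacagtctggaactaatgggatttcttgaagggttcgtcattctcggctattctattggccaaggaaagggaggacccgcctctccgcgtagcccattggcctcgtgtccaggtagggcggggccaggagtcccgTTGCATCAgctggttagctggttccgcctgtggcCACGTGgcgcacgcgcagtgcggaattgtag
Gars, chr6:55037751-55038050, plus strand: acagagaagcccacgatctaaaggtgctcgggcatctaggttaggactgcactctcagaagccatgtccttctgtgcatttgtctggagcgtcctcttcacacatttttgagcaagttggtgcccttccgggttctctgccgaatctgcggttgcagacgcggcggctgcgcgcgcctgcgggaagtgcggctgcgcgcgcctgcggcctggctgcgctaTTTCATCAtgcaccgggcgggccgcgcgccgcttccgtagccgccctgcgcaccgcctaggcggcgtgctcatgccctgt
Iars, chr13:49681880-49682179, plus strand: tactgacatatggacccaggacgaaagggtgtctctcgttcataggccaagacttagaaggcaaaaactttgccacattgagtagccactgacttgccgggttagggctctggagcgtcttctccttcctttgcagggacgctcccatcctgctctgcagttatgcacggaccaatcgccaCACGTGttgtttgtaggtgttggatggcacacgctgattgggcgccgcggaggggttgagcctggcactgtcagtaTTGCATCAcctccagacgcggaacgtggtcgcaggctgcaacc
Yars, chr4:129189653-129189952, plus strand: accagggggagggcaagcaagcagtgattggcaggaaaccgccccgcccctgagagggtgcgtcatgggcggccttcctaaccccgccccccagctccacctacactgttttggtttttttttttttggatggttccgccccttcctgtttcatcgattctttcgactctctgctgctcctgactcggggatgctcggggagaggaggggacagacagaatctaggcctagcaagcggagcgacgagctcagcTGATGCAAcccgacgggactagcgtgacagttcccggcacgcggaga

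Aars held TGATGNAA at positions -112 and 10 and CACGTG at -146, and Tars held them at -15 and 20. A position is that of the match's first base, counted from the RefSeq start, and the base before that start is -1. Gars held TGATGNAA at -30, Iars at 8 and Yars at 4, and Iars also held CACGTG at -69. In all, TGATGNAA lay in 5 of the 13 cytosolic and 0 of the 14 mitochondrial synthetase promoters matched, beside 3.97% of the 32851 promoters of the reference. CACGTG lay in 4 of 13 cytosolic promoters (Aars, Farsb, Iars and Tars) and in 1 of 14 mitochondrial ones (Ears2), beside 7.15% of all promoters. Among the 27 members with a matched promoter, the interferon-stimulated element lay in Qars only, beside 3.44% of all promoters. The motif did not sort the genes by direction: with TGATGNAA, Aars and Tars were higher in both LP groups, Yars was called higher in median LP only, Gars was not called, and Iars was lower in both. A match is a description of letters and does not show binding. The members matched to a RefSeq promoter numbered 27, and Cars, Hars, Lars, Nars, Rars, Vars, Wars, Hars2 and Pars2 were not matched.

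Kars, Farsa, Dars and Cars were also higher in both LP groups. Kars had 132, 115 and 115 FPKM in median LP and 120, 129 and 135 FPKM in early LP, against 88.9, 91.6 and 112 FPKM in HPC. It was the highest cytosolic synthetase in all 3 groups, and its log2 fold change was 0.35 ± 0.08 in median LP (adjusted p = 0.00193) and 0.42 ± 0.08 in early LP (adjusted p = 0.000519). Dars, the aspartate enzyme, had 111, 106 and 94.2 FPKM in median LP and 93.6, 95.4 and 91.8 FPKM in early LP, against 79.6, 78.4 and 81.3 FPKM in HPC, and its log2 fold change was 0.50 ± 0.07 in median LP (adjusted p = 2.84e-05) and 0.29 ± 0.07 in early LP (adjusted p = 0.0018). Cars, the cysteine enzyme and the lowest cytosolic gene in every group, had 21.4, 17.4 and 17.4 FPKM in median LP and 17.1, 17.3 and 18.8 FPKM in early LP, against 15.3, 14.8 and 15.8 FPKM in HPC. Its LP and HPC libraries did not overlap, and its log2 fold change was 0.35 ± 0.07 in median LP (adjusted p = 0.000751) and 0.24 ± 0.07 in early LP (adjusted p = 0.00855). Without early LP replicate 3, the adjusted p of Cars in early LP was 0.054.

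Sars (serine) and Lars (leucine) were called higher in both LP groups as well, and Nars (asparagine) and Yars (tyrosine) in median LP. Their calls were less steady over the alternatives: in median LP, Sars was called under 19 of 20, Nars and Yars under 16 each and Lars under 13, and in early LP, Sars was called under 16 and Lars under 14. The log2 fold change of Sars was 0.37 ± 0.09 in median LP (adjusted p = 0.00357) and 0.29 ± 0.09 in early LP (adjusted p = 0.014), and its FPKM overlapped between groups in both comparisons. That of Lars was 0.21 ± 0.07 in median LP (adjusted p = 0.0262) and 0.20 ± 0.07 in early LP (adjusted p = 0.0298), and its FPKM in median LP overlapped HPC. Nars and Yars were called in median LP only, at 0.22 ± 0.07 (adjusted p = 0.0105) and 0.24 ± 0.08 (adjusted p = 0.0243), against 0.13 ± 0.07 and 0.15 ± 0.08 in early LP. The Lars entry carries a second gene identifier, and the Yars locus overlaps C77080. Lars lost its call in median LP without median LP replicate 1 (0.14, adjusted p = 0.111), HPC replicate 3 (adjusted p = 0.065) or early LP replicate 3 (adjusted p = 0.058). In early LP it was lost without HPC replicate 3 (adjusted p = 0.0724), early LP replicate 2 (adjusted p = 0.0536) or early LP replicate 3 (adjusted p = 0.117). Yars lost its call in median LP without median LP replicate 1 (0.14, adjusted p = 0.107) and gained it in early LP without that library (0.16, adjusted p = 0.0417), and Sars lost its early LP call without early LP replicate 3 (adjusted p = 0.0669). On log2(FPKM + 1) with limma, Lars, Nars and Yars were not called in median LP (adjusted p = 0.217, 0.144 and 0.197), and Cars, Lars and Sars were not called in early LP (adjusted p = 0.0521, 0.0939 and 0.0915).

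The rises were then read by chromosome. Aars, Farsa, Kars and the mitochondrial Cars2 lie on chromosome 8 and Tars on chromosome 15, and these 5 are the only members on those chromosomes; all 5 were higher in both LP groups. Among the other genes tested on chromosome 8, the median log2 fold change was 0.52 in median LP and 0.53 in early LP, and 67.7% and 66.7% of them were called higher. On chromosome 15 the medians were 0.51 and 0.52, with 67.8% and 67.4% called higher, whereas on the remaining chromosomes the medians were -0.08 and -0.09, with 32.8% and 32.0% called higher. Aars and Tars stood above the median of their chromosomes, while Farsa, Kars and Cars2 stood below it. All 5 lay between the 25th and 75th percentile of the other genes on their chromosome in both LP groups. The 75th percentile was 1.07 in median LP and 1.02 in early LP on chromosome 8, and 1.19 in both on chromosome 15. Off chromosomes 8 and 15, 6 of 16 cytosolic genes were higher and 6 lower in median LP, and 4 were higher and 6 lower in early LP, with medians of -0.01 and 0.03. The mitochondrial genes off those chromosomes were 1 higher and 9 lower of 15 in median LP, and 0 higher and 10 lower in early LP. Their medians were -0.50 and -0.45. Of the other genes tested off those chromosomes, 40.1% were called lower in median LP and 40.3% in early LP. DNA copy number was not measured in these libraries, and the part of chromosome in the members' changes was not tested.

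**Figure D2:**
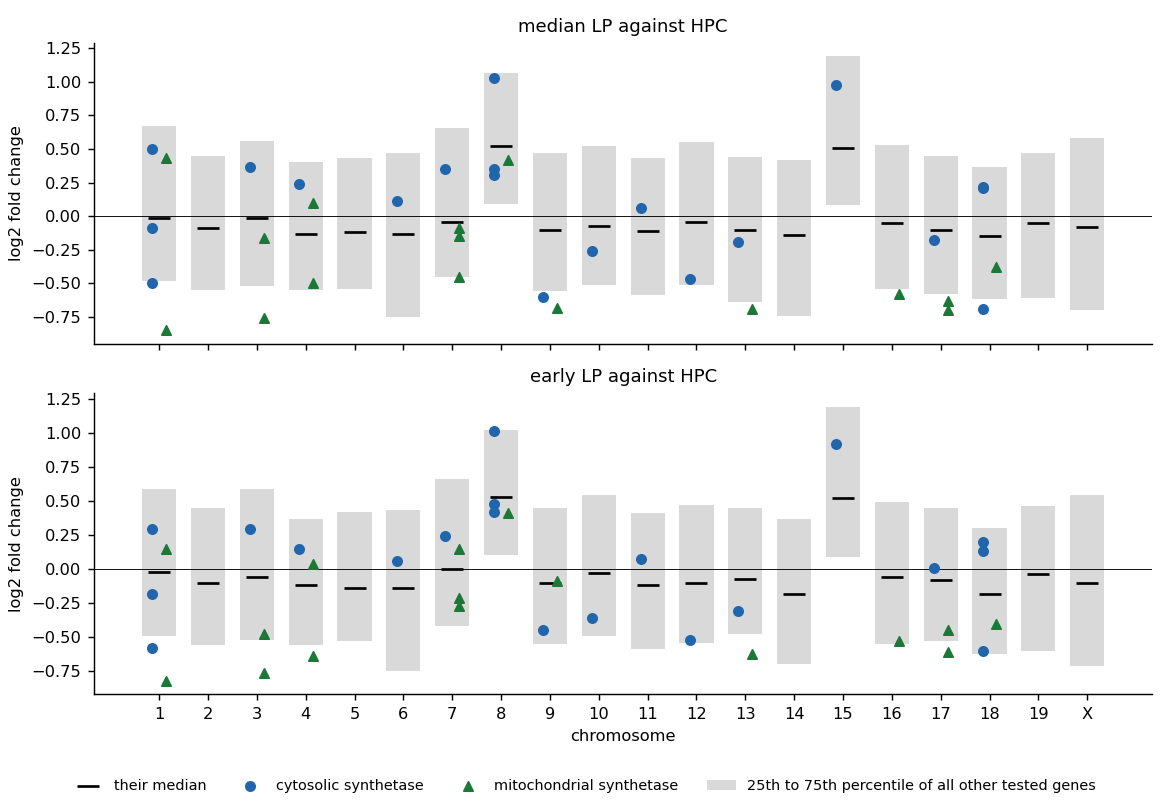
Log2 fold change against HPC of each cytosolic (circles) and mitochondrial (triangles) synthetase by chromosome, over the 25th to 75th percentile (bars) and median (lines) of all other genes tested there, for median LP (top) and early LP (bottom). The bars of chromosomes 8 and 15 lie above 0, with medians of 0.51 to 0.53, and the 5 synthetases on them are all above 0.

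The phenylalanine enzyme is built of an alpha subunit, Farsa, and a beta subunit, Farsb, and their transcripts moved in opposite directions. Farsa, on chromosome 8, had 104, 98.5 and 95.4 FPKM in median LP and 102, 124 and 113 FPKM in early LP, against 73.8, 80.2 and 94.5 FPKM in HPC. Farsb, on chromosome 1, had 33.2, 30.3 and 29.8 FPKM in median LP and 30.3, 29.1 and 31.9 FPKM in early LP, against 45.8, 44.8 and 51.2 FPKM in HPC. The log2 fold change of Farsa was 0.31 ± 0.09 in median LP (adjusted p = 0.0078) and 0.48 ± 0.09 in early LP (adjusted p = 0.000422). That of Farsb was -0.50 ± 0.06 in median LP (adjusted p = 1.52e-05) and -0.58 ± 0.06 in early LP (adjusted p = 4.59e-06). In both cases every LP library lay on the same side of every HPC library. The deposited Farsa entry carries a second gene identifier, so its reads may be shared with another gene.

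The other cytosolic genes that fell in both LP groups were Hars, Qars, Wars, Mars and Iars. Hars, the histidine enzyme, had 41.9, 36.9 and 36.7 FPKM in median LP and 38.9, 42.6 and 44.6 FPKM in early LP, against 61.9, 63.7 and 70.8 FPKM in HPC, a log2 fold change of -0.69 ± 0.07 in median LP (adjusted p = 2.3e-06) and -0.60 ± 0.07 in early LP (adjusted p = 8.07e-06). Qars, the glutamine enzyme, had 44.6, 40.7 and 40.3 FPKM in median LP and 44.2, 47.7 and 49.7 FPKM in early LP, against 59.9, 62.7 and 77.5 FPKM in HPC. Its log2 fold change was -0.60 ± 0.08 in median LP (adjusted p = 3.23e-05) and -0.45 ± 0.08 in early LP (adjusted p = 0.000319), the second largest cytosolic fall in median LP. Wars, the tryptophan enzyme, had 21.7, 21.0 and 20.1 FPKM in median LP and 20.2, 20.2 and 21.0 FPKM in early LP, against 28.6, 29.8 and 32.6 FPKM in HPC, with log2 fold changes of -0.47 ± 0.06 in median LP (adjusted p = 1.48e-05) and -0.52 ± 0.06 in early LP (adjusted p = 6.48e-06). The groups of Hars, Qars and Wars did not overlap. Mars, the methionine enzyme, had 42.6, 35.7 and 34.3 FPKM in median LP and 34.0, 35.7 and 36.8 FPKM in early LP, against 45.2, 47.3 and 47.7 FPKM in HPC. Its log2 fold change was -0.26 ± 0.07 in median LP (adjusted p = 0.00361) and -0.36 ± 0.07 in early LP (adjusted p = 0.00043). The locus of Mars overlaps that of Ddit3, which was called higher in both LP groups, at 0.39 and 0.30, and without a stated strand the reads of the overlap cannot be assigned with certainty. Iars, the isoleucine enzyme, had log2 fold changes of -0.19 ± 0.06 in median LP (adjusted p = 0.0182) and -0.31 ± 0.06 in early LP (adjusted p = 0.00107). In median LP the call on Iars was lost without HPC replicate 1 (adjusted p = 0.0781), HPC replicate 2 (adjusted p = 0.108), median LP replicate 1 (adjusted p = 0.0675) or median LP replicate 2 (adjusted p = 0.0518).

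Gars, Rars (arginine), Vars (valine) and Eprs were called in neither comparison, with log2 fold changes between -0.18 and 0.11. Eprs averaged 47.8 ± 2.33 FPKM in median LP and 46.1 ± 1.85 FPKM in early LP, against 53.4 ± 2.17 FPKM in HPC (SD, n = 3 each). All its LP libraries lay below all HPC libraries, at log2 fold changes of -0.09 ± 0.08 in median LP (adjusted p = 0.346) and -0.18 ± 0.08 in early LP (adjusted p = 0.0625). Eprs was called lower in early LP without HPC replicate 3 (-0.25, adjusted p = 0.00726) or early LP replicate 1 (-0.22, adjusted p = 0.048), and on log2(FPKM + 1) with limma in both comparisons (adjusted p = 0.0415 in median LP and 0.011 in early LP). Gars, Rars and Vars overlapped HPC in both comparisons. In all, 14 of 20 cytosolic genes did not overlap HPC in median LP, beside 76.0% of all genes, and 15 of 20 did not in early LP, beside 75.3%.

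The 8 synthetases of the multisynthetase complex were 3 higher (Dars, Kars and Lars) and 3 lower (Iars, Mars and Qars) in both LP groups, with Eprs and Rars not called, and a median log2 fold change of -0.01 in median LP and -0.06 in early LP. Both counts are near the shares of all genes, of which 36% were higher and 37.7% lower in median LP and 35.3% higher and 37.9% lower in early LP, and the same shares stand beside the counts that follow. The 12 outside the complex were 7 higher and 3 lower in median LP and 5 higher and 3 lower in early LP, with medians of 0.23 and 0.14. Of the scaffold proteins, Eef1e1 fell to 38.8 ± 2.14 FPKM in median LP and 35.2 ± 1.36 FPKM in early LP, against 64.4 ± 4.55 FPKM in HPC, at log2 fold changes of -0.63 ± 0.07 (adjusted p = 4.74e-06) and -0.82 ± 0.07 (adjusted p = 4.82e-07). Aimp1 and Aimp2 were not called in either. Synthetases also fall into structural classes by the fold of their catalytic domain. The 10 cytosolic genes of class II, which include Aars, Tars, Dars, Kars and both phenylalanine subunits, were 7 higher and 2 lower in median LP and 6 higher and 2 lower in early LP. Among those higher in both are the 4 cytosolic genes of chromosomes 8 and 15. The 9 of class I were 3 higher and 4 lower in median LP and 2 higher and 4 lower in early LP. Eprs holds domains of both and was left out of both counts.

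**Figure D3:**
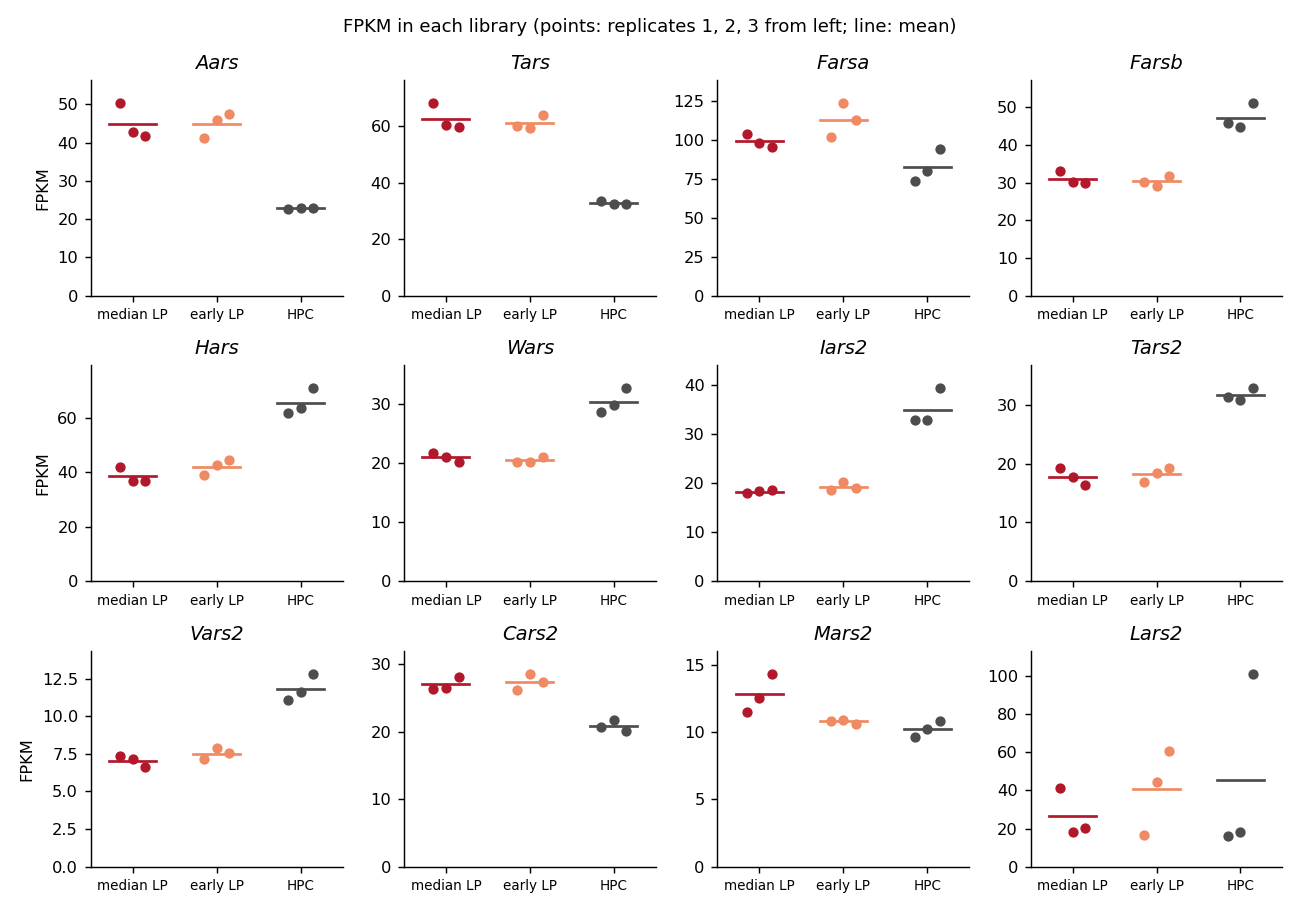
FPKM of 12 synthetase genes in each library of median LP, early LP and HPC, with a line at each group's mean and axes that start at 0. Aars, Tars, Farsa and Cars2 are higher in every LP library than in any HPC library and Farsb, Hars, Wars, Iars2, Tars2 and Vars2 are lower, Mars2 overlaps HPC in early LP, and Lars2 ranges from 16.1 to 101 FPKM within HPC.

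Among the mitochondrial enzymes, the largest called falls in median LP were in Iars2, Tars2 and Vars2, and in early LP in Iars2, Tars2 and Rars2. Iars2 had 17.9, 18.3 and 18.5 FPKM in median LP and 18.5, 20.1 and 18.9 FPKM in early LP, against 32.7, 32.8 and 39.2 FPKM in HPC. Its log2 fold change was -0.85 ± 0.07 in median LP (adjusted p = 4.65e-07) and -0.82 ± 0.07 in early LP (adjusted p = 7e-07). Part of the Iars2 locus overlaps Rab3gap2. Tars2 had 19.3, 17.8 and 16.3 FPKM in median LP and 16.8, 18.4 and 19.3 FPKM in early LP, against 31.3, 30.8 and 32.8 FPKM in HPC, with log2 fold changes of -0.76 ± 0.06 in median LP (adjusted p = 2.72e-07) and -0.76 ± 0.06 in early LP (adjusted p = 2.89e-07). Vars2 had 7.34, 7.13 and 6.62 FPKM in median LP and 7.13, 7.89 and 7.53 FPKM in early LP, against 11.1, 11.6 and 12.8 FPKM in HPC, with log2 fold changes of -0.70 ± 0.07 in median LP (adjusted p = 1.27e-06) and -0.61 ± 0.07 in early LP (adjusted p = 4.04e-06). In each of the 3 genes, all 6 LP libraries lay below all 3 HPC libraries. The Vars2 entry, like that of Farsa, carries a second gene identifier.

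Fars2, Yars2, Rars2, Aars2 and Hars2 were lower in both LP groups as well. Fars2 had 8.55, 7.84 and 7.56 FPKM in median LP and 8.21, 8.66 and 8.85 FPKM in early LP, against 11.6, 13.6 and 15.5 FPKM in HPC, and its log2 fold change was -0.69 ± 0.09 in median LP (adjusted p = 2.71e-05) and -0.62 ± 0.09 in early LP (adjusted p = 7.06e-05). Fars2 is a single-chain enzyme, unlike its cytosolic counterpart, and fell with the beta subunit of that counterpart. Yars2 had 23.9, 19.8 and 19.4 FPKM in median LP and 21.6, 21.8 and 22.4 FPKM in early LP, against 30.6, 32.2 and 35.3 FPKM in HPC, and its log2 fold change was -0.58 ± 0.08 in median LP (adjusted p = 2.33e-05) and -0.53 ± 0.07 in early LP (adjusted p = 4.7e-05). Rars2 had 14, 13.3 and 12.1 FPKM in median LP and 12.3, 12.1 and 12.7 FPKM in early LP, against 18.8, 20.1 and 21.1 FPKM in HPC, and its log2 fold change was -0.50 ± 0.07 in median LP (adjusted p = 3.11e-05) and -0.64 ± 0.07 in early LP (adjusted p = 3.75e-06). For these genes, too, no LP library reached the lowest HPC library. Aars2 averaged 4.79 ± 0.581 FPKM in median LP and 5.44 ± 0.319 FPKM in early LP, against 7.59 ± 0.673 FPKM in HPC (SD, n = 3 each), at -0.63 ± 0.10 in median LP (adjusted p = 0.000154) and -0.45 ± 0.10 in early LP (adjusted p = 0.00171). The loci of Hars and Hars2 lie 74 bases apart on chromosome 18, and this neighbouring pair fell together. Hars2 averaged 9.37 ± 1.00 FPKM in median LP and 9.54 ± 0.551 FPKM in early LP, against 13.2 ± 0.232 FPKM in HPC. Its log2 fold change was -0.38 ± 0.08 in median LP (adjusted p = 0.00101) and -0.40 ± 0.08 in early LP (adjusted p = 0.000721). The deposited entry of Hars2 also carries a second gene identifier.

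Sars2 was lower in median LP only, at -0.45 ± 0.09 (adjusted p = 0.000943), against -0.21 ± 0.09 in early LP (adjusted p = 0.055), where it was called without HPC replicate 1 (adjusted p = 0.0498) or early LP replicate 2 (adjusted p = 0.0175). Nars2 and Wars2 were lower in early LP only, at -0.27 ± 0.08 (adjusted p = 0.0132) and -0.48 ± 0.10 (adjusted p = 0.000988), against -0.15 ± 0.08 and -0.16 ± 0.10 in median LP. The early LP call of Nars2 was lost without HPC replicate 2 or without early LP replicate 3 (adjusted p = 0.0517 each). On log2(FPKM + 1) with limma, Nars2 and Wars2 were called lower in median LP too (adjusted p = 0.015 and 0.029). None of Sars2, Nars2 and Wars2 was called between median and early LP. Ears2 (glutamate) and Pars2 (proline) were called in neither comparison, with log2 fold changes between -0.09 and 0.15.

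Cars2 and Mars2 were the mitochondrial genes called higher. Cars2, on chromosome 8, had 26.3, 26.5 and 28.1 FPKM in median LP and 26.1, 28.5 and 27.3 FPKM in early LP, against 20.7, 21.7 and 20.1 FPKM in HPC, with log2 fold changes of 0.42 ± 0.07 in median LP (adjusted p = 0.000185) and 0.41 ± 0.07 in early LP (adjusted p = 0.000209). It exceeded its cytosolic partner Cars in every library. Mars2 had 11.5, 12.5 and 14.3 FPKM in median LP and 10.8, 10.9 and 10.6 FPKM in early LP, against 9.65, 10.2 and 10.8 FPKM in HPC. It was called in median LP at 0.43 ± 0.09 (adjusted p = 0.00105) and not in early LP at 0.15 ± 0.09 (adjusted p = 0.148), and the difference between the LP groups was not called (0.28 ± 0.09, adjusted p = 0.15). The 3 median LP libraries of Mars2 lay above those of both other groups.

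Lars2, the mitochondrial leucine enzyme, varied most between libraries. It had 41.3, 18.1 and 20.4 FPKM in median LP and 16.7, 44.5 and 60.8 FPKM in early LP, against 16.1, 18.4 and 101 FPKM in HPC. Libraries of the same group differed several-fold, and all 3 groups overlapped. Its log2 fold change was -0.68 ± 0.63 in median LP (adjusted p = 0.344) and -0.09 ± 0.63 in early LP (adjusted p = 0.9). Without HPC replicate 3, the change in early LP was 1.23 (adjusted p = 0.0276), on the other side of 0. The libraries that were highest for Lars2 in their group, median LP replicate 1, early LP replicate 3 and HPC replicate 3, also had the lowest values for long transcripts: the 25% of genes with the longest transcripts deviated from the group mean by a median of -0.081, -0.074 and -0.181 on the log2 scale. The part of this length difference in the Lars2 values was not tested. No direction is given for Lars2, and class sums are given without it.

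**Figure D4:**
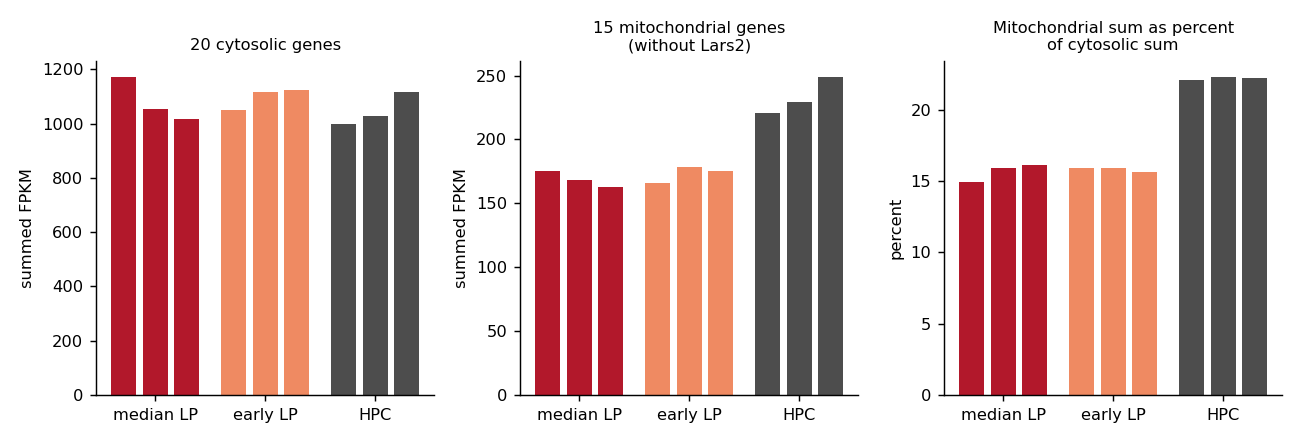
Summed FPKM of the 20 cytosolic genes (left), of 15 mitochondrial genes without Lars2 (middle), and the second as a percent of the first (right), with 1 bar per library in replicate order. The cytosolic sums overlap between groups, the mitochondrial sums of the 6 LP libraries lie between 163 and 178 FPKM against 221 to 249 FPKM in HPC, and the percent is 14.9 to 16.1 in LP libraries against 22.1 to 22.3 in HPC libraries.

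Summed over the class, the cytosolic genes gave 1082 ± 81.5 FPKM in median LP and 1096 ± 41.0 FPKM in early LP, against 1049 ± 62.2 FPKM in HPC (SD, n = 3 each), with overlapping ranges. The 15 mitochondrial genes without Lars2 gave 169 ± 5.78 FPKM in median LP and 173 ± 5.76 FPKM in early LP, against 233 ± 14.2 FPKM in HPC. As a percent of the cytosolic sum, the mitochondrial sum was 15.6 ± 0.638 in median LP and 15.8 ± 0.188 in early LP, against 22.2 ± 0.093 in HPC. No library of LP reached the range of HPC in the mitochondrial sum or in the percent. With Lars2 included, the mitochondrial sum was 195 ± 18 FPKM in median LP and 214 ± 27.2 FPKM in early LP, against 278 ± 62.3 FPKM in HPC. In the same libraries the stem and progenitor, erythroid and megakaryocyte marker sums given above were lower and the promyelocyte, neutrophil and monocyte sums higher. The single genes of the neutrophil and monocyte lists were split in direction, as given above. The part of these cell types in the class difference was not tested.

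The partner enzymes for the same amino acid gave 17 pairs, counting Fars2 with each phenylalanine subunit and Ears2 and Pars2 each with Eprs. The ratio of mitochondrial to cytosolic FPKM was lower in every LP library than in any HPC library in 9 of the 17 pairs, in both comparisons. For single genes, FPKM did not overlap HPC in 76% of all genes in median LP and 75.3% in early LP. The share over other gene pairs was not computed. The 9 pairs were those of Aars2, Fars2 with Farsa, Iars2, Nars2, Rars2, Sars2, Tars2, Vars2 and Yars2. The widest gap was in the threonine pair: Tars2 was 28.4 ± 1.06% of Tars in median LP and 29.7 ± 1.54% in early LP, against 96.1 ± 3.84% in HPC (SD, n = 3 each). Aars2 was 10.7 ± 1.70% of Aars in median LP and 12.1 ± 0.256% in early LP, against 33.3 ± 2.89% in HPC. In both pairs the ratio combined a fall of the mitochondrial gene with a rise of the cytosolic gene. Yars2 was 71.5 ± 3.34% of Yars in median LP and 77.1 ± 3.42% in early LP, against 124 ± 7.33% in HPC, so the tyrosine pair changed which partner was higher. Iars2 was 51.8 ± 0.934% of Iars in median LP and 57.8 ± 2.88% in early LP, against 82.9 ± 9.73% in HPC, although Iars itself fell. The opposite was seen for methionine, where Mars2 was 34.5 ± 7.25% of Mars in median LP and 30.4 ± 1.57% in early LP, against 21.9 ± 0.666% in HPC, with no overlap in either comparison. The ratios of Hars2 to Hars and Wars2 to Wars were higher without overlap in median LP only. In the pairs of Cars2, Ears2, Pars2, Lars2 and Fars2 with Farsb the groups overlapped in both comparisons. No test was run on the ratios.

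**Figure D5:**
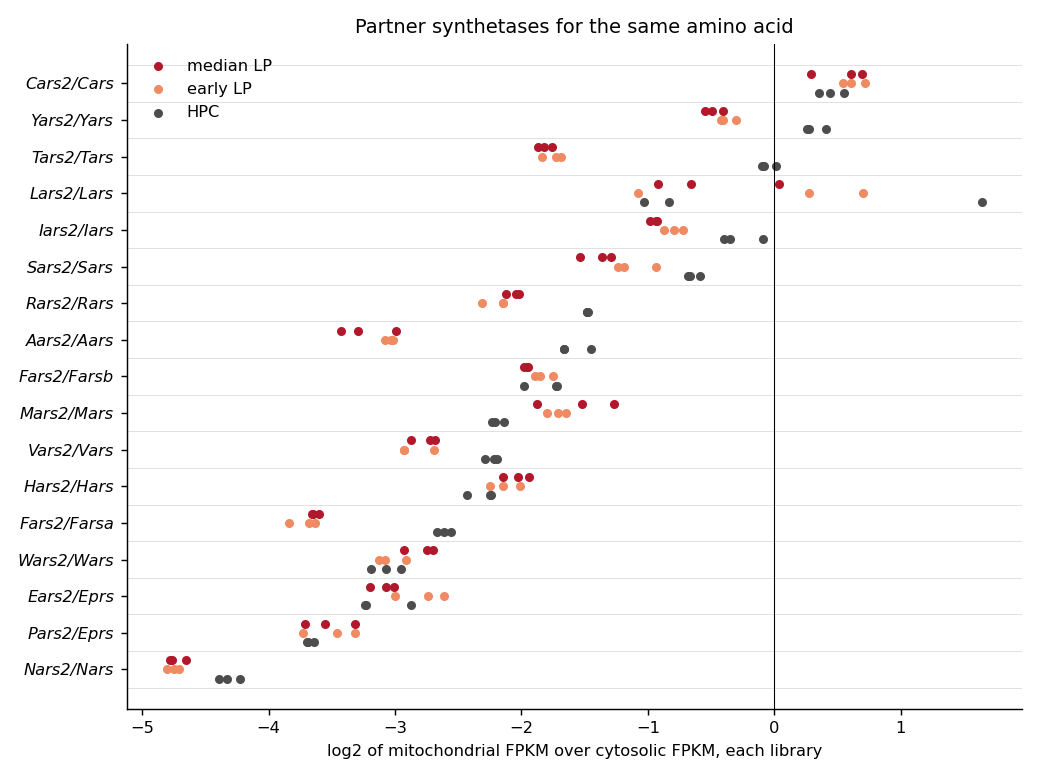
Log2 ratio of mitochondrial to cytosolic FPKM for 17 partner pairs, with 1 point per library of median LP (dark red), early LP (orange) and HPC (grey), in order of the HPC mean. The threonine pair lies between -1.87 and -1.69 in LP libraries against -0.10 to 0.01 in HPC libraries, and the HPC points of the leucine pair spread from -1.03 to 1.64.

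Transcript choice within the synthetase genes was followed where the table lists more than 1 transcript. Kars makes its cytosolic and mitochondrial enzymes from alternatively spliced transcripts, and the transcript of 2173 bases made up 15.7 ± 2.32% of Kars FPKM in median LP and 15.7 ± 2.08% in early LP, against 15.7 ± 1.28% in HPC (SD, n = 3 each). The other, of 1993 bases, made up the rest, 84.3% in each group. The main transcript of Tars2 held 89.2 ± 2.71% in median LP and 86.7 ± 1.73% in early LP, against 90.3 ± 1.64% in HPC, and the coding transcript of Yars2 held 79.9 ± 1.59% and 80.6 ± 3.09%, against 81.4 ± 4.33%. In Pars2 the transcript of 3075 bases held 18.7 ± 2.41% in median LP and 16.4 ± 4.67% in early LP, against 11.3 ± 6.06% in HPC. The median LP libraries of Pars2, at 16.2 to 21.0%, lay just above the HPC libraries, at 4.37 to 15.6%, and such shares rest on the authors' split of reads between overlapping transcripts.

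Median and early LP did not differ in any synthetase by this test. No member was called, beside 2.48% of all genes, and 4 of 36 had an unadjusted p under 0.05, beside 16.5% of all genes. DESeq2 and limma also called none. The smallest adjusted p was that of Wars2, which was higher in every median LP library than in any early LP library (0.32 ± 0.10, adjusted p = 0.138). Dars (0.21 ± 0.07, adjusted p = 0.142) and Mars2 (0.28 ± 0.09, adjusted p = 0.15) followed. FPKM did not overlap between the LP groups for Iars, Mars2 and Wars2, higher in median LP (beside 9.18% of all genes), and for Iars2, lower in median LP (beside 13.2%), and 4 of 36 members are beside 22.3% of all genes in either direction. A p above the threshold does not show that the LP groups were alike: the SE of the log2 fold change was 0.06 to 0.12 for every member but Lars2 (0.63 against HPC).

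Other steps of mitochondrial translation were read beside the mitochondrial synthetases. Of 12 mitochondrial translation factors tested, 0 were higher and 10 lower in median LP, and 0 were higher and 9 lower in early LP, with medians of -0.37 and -0.42 against -0.04 for all genes, of which 37.7% were lower in median LP and 37.9% in early LP. Tufm, the mitochondrial elongation factor that brings charged tRNA to the ribosome, averaged 43.9 ± 5.07 FPKM in median LP and 47.8 ± 4.87 FPKM in early LP, against 81.6 ± 6.65 FPKM in HPC, with log2 fold changes of -0.83 ± 0.08 (adjusted p = 2.72e-06) and -0.73 ± 0.08 (adjusted p = 8.74e-06). Mrrf, which recycles mitochondrial ribosomes, fell by 0.73 in median LP (adjusted p = 2.53e-06) and by 0.81 in early LP (adjusted p = 9.72e-07). Gfm2, the partner of Mrrf in recycling, fell by 0.58 in median LP (adjusted p = 4.76e-06) and by 0.73 in early LP (adjusted p = 6.07e-07). Most genes of the cytosolic elongation factors were lower as well. Of 5 genes of elongation factors 1 and 2, 0 were higher and 4 lower in each LP group, with medians of -0.45 and -0.33, and Eef1d was not called.

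The Atf4 pathway was read beside the cytosolic synthetases. Of 28 genes of the pathway tested, 20 were higher and 3 lower in median LP, and 17 were higher and 2 lower in early LP, with medians of 0.56 and 0.47. Of all genes, 36% were higher and 37.7% lower in median LP and 35.3% higher and 37.9% lower in early LP, with a median of -0.04 in both. Atf5, a related transcription factor, averaged 39.1 ± 4.59 FPKM in median LP and 28.5 ± 1.79 FPKM in early LP, against 6.06 ± 0.682 FPKM in HPC, at log2 fold changes of 2.73 ± 0.09 (adjusted p = 8.58e-11) and 2.28 ± 0.09 (adjusted p = 4.05e-10). Stc2, a secreted glycoprotein induced in stress, rose by 2.94 (adjusted p = 1.13e-10) and 2.69 (adjusted p = 2.7e-10) in the same order, and Chac1, which degrades glutathione, by 4.57 (adjusted p = 1.93e-09) and 4.60 (adjusted p = 1.83e-09). The genes of the list that were lower in both LP groups were Vldlr, a lipoprotein receptor, and Aldh18a1, an enzyme of proline synthesis. Ppp1r15a, which directs the dephosphorylation of the Eif2s1 protein, was lower in median LP only. Vldlr had 0 to 0.00745 FPKM in median LP and 0.00359 to 0.00503 FPKM in early LP, against 0.288 to 0.353 FPKM in HPC. Aldh18a1 was at -0.49 ± 0.06 in median LP (adjusted p = 2.07e-05) and -0.47 ± 0.06 in early LP (adjusted p = 3.09e-05), and Ppp1r15a at -1.17 ± 0.20 (adjusted p = 0.000226) and -0.44 ± 0.20 (adjusted p = 0.062). These 3 genes, Atf4 itself, Asns, the asparagine synthetase, and Myc were singled out after their values were seen. Atf4, on chromosome 15, averaged 296 ± 15.6 FPKM in median LP and 276 ± 27.3 FPKM in early LP, against 126 ± 14.6 FPKM in HPC, while Asns was not called in either comparison (adjusted p = 0.553 and 0.0509). Of 7 kinases, sensors and targets upstream of Atf4, 1 was higher and 2 were lower in each LP group, the second of those lower being Eif2s1. Eif2ak3, which responds to stress of the endoplasmic reticulum, was higher by 0.74 ± 0.06 (adjusted p = 5.03e-07) and 0.80 ± 0.06 (adjusted p = 2.51e-07), and Gcn1l1, a partner of Gcn2, was lower, at -0.42 ± 0.08 (adjusted p = 0.000335) and -0.38 ± 0.08 (adjusted p = 0.000714). The kinase Eif2ak4 itself was not called (-0.15 ± 0.07 in both, adjusted p = 0.0836 and 0.0792). Beside this list, the 20 cytosolic synthetases were split, with 10 higher and 6 lower in median LP and 8 higher and 6 lower in early LP. The largest rises among them, those of Aars and Tars, were of genes on chromosomes 8 and 15. Of 9 genes of the Myc network, 6 were higher and 1 lower in median LP. In early LP, 6 were higher and 2 lower, and the medians were 0.51 and 0.47 in the same order. Their proteins bind or compete at the E-box and include some that oppose Myc, so these medians give no direction for Myc activity. Mycn had 0 to 0.0155 FPKM in median LP and 0 to 0.113 FPKM in early LP, against 4.95 to 6.85 FPKM in HPC. Mxi1, which opposes Myc, was higher by 1.48 ± 0.07 (adjusted p = 1.81e-09) and 1.37 ± 0.07 (adjusted p = 3.59e-09), and Mlx, a Max-like partner, by 1.22 ± 0.06 in both (adjusted p = 6.64e-09 and 6.81e-09). Myc averaged 119 ± 21.9 FPKM in median LP and 109 ± 8.33 FPKM in early LP, against 141 ± 8.41 FPKM in HPC, and was called lower in early LP only (-0.23 ± 0.10, adjusted p = 0.0547 in median LP; -0.34 ± 0.10, adjusted p = 0.00796 in early LP).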

How the data were processed

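RNA was extracted with Trizol, libraries were made with the Illumina TruSeq kit, and TopHat2 2.0.6 and build mm10 are named, per the labels' protocols and the submitters' processing notes. Quantifier, annotation and strand setting are not named there. The authors deposited FPKM and estimated counts per RefSeq transcript and library, per the file headers. The estimated counts are not whole. Their low values were multiples of 1 step per library (0.867 to 1.23), and dividing by it gave whole numbers, within 0.05, for 89.6 to 91.3% of values up to 50 steps, which puts the depth at 20.6 to 28.4 M (mega) fragments.

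Transcripts were summed by gene symbol, estimated counts were rounded to whole numbers, and edgeR 4.0.16 (R 4.3.3; TMM, filterByExpr by group, quasi-likelihood test) was fitted to all 9 libraries with 1 coefficient per group, after a check on simulated counts. It tested 12837 genes, left out 3700, and gave a biological coefficient of variation of 9.81%. Alternatives were DESeq2 1.42.0 and its size factors, limma 3.58.1 on log2(FPKM + 1) and log2(FPKM + 0.1), no filter, the highest transcript per gene, recovered fragments, 2 groups per fit, the replicate block and leaving out each library. A block for the split of libraries by transcript length and class sums without Lars2 were added after seeing the data.

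All 36 members are named. The 5 with the smallest adjusted p in each direction, class and comparison against HPC have all library values, and up to 4 genes of each other list may be named. The members and lists were chosen with earlier results of these data known. Mean and SD are over libraries. Promoters are from RefSeq, GRCm38.p6; positions of deposited genes count from 1 on mm10. No per-sample column was left unused.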

Additional observations from a re-analysis of the deposited data

How the results depend on the processing

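Of 2160 member values under alternatives, 2104 kept their side of the threshold with no called value turned round, 36 lost a call, 19 gained a call and 1 reversed: Lars2 in early LP against HPC was 1.23 (adjusted p = 0.0276) without HPC replicate 3, and ranged from -0.48 to 1.23 over the libraries left out, where fewer samples entered the fit. Among the 2104 are 63 values, called neither in the reported fit nor under the alternative, whose sign changed. Every cytosolic fall in early LP, and every mitochondrial call in median LP, was made under all 20 alternatives, and so were 5 of the 8 cytosolic rises in early LP and 6 of the 10 in median LP.

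The limma fits called fewer cytosolic rises: 6 in median LP without a filter, and 5 in early LP in all 3 fits, where the cytosolic median was 0.06. With a pseudocount of 0.1 the mitochondrial median in early LP was -0.47. The cause was not tested. Leaving out 1 library gave 5 to 9 cytosolic and 1 to 2 mitochondrial rises in early LP, cytosolic medians of 0.09 to 0.15 in early LP, and mitochondrial medians of -0.49 to -0.39 in median LP and -0.47 to -0.38 in early LP.

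Between median and early LP, no synthetase was called under any alternative. Over all genes, 190 were higher and 128 lower. These counts were 362 and 243 with 2 groups in the fit, 325 and 251 by DESeq2, 350 and 226 with the length split as a block, and 74 and 81 by limma at a pseudocount of 0.1. By limma at 1 they were 86 and 76, or 104 and 72 without a filter. With the highest transcript per gene 75 were lower, and leaving out 1 library gave 66 to 391 higher and 39 to 296 lower. The cause was not tested.

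Depth left no member untested. The labels do not say that the replicate numbers pair the libraries. Across groups, deviations of same-numbered libraries correlated at -0.443 to 0.288 and those of differently numbered libraries at -0.505 to 0.529. The deviations are taken from each group's own mean, so this check cannot decide whether libraries were paired. The replicate block left the counts of called synthetases against HPC at 10 and 6 cytosolic and 2 and 9 mitochondrial in median LP and 8 and 6 cytosolic and 1 and 10 mitochondrial in early LP, and gave 130 genes higher and 62 lower between median and early LP.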

Other observations

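Beside the synthetases, genes that finish and proofread tRNA were examined. Of 20 such genes tested, 1 was higher and 13 were lower in each LP group, with medians of -0.29 in median LP and -0.31 in early LP. Of all genes, 36% were higher and 37.7% lower in median LP and 35.3% higher and 37.9% lower in early LP, with a median of -0.04 in both. Tsen15, a subunit of the tRNA splicing endonuclease, averaged 12.4 ± 0.772 FPKM in median LP and 13.7 ± 1.03 FPKM in early LP, against 27.3 ± 2.39 FPKM in HPC (SD, n = 3 each; edgeR log2 fold changes -1.03 ± 0.09 and -0.93 ± 0.09, adjusted p = 7.07e-07 and 1.67e-06). Dtd1, which clears D-amino acids from tRNA, averaged 12.7 ± 1.04 FPKM in median LP and 14.8 ± 1.08 FPKM in early LP, against 23.9 ± 2.91 FPKM in HPC (edgeR adjusted p = 2.79e-06 and 2.11e-05). The gene that rose was Rpp25, a subunit of ribonuclease P, at 2.27 to 3.42 FPKM in median LP and 1.47 to 1.79 FPKM in early LP, against 0 to 0.126 FPKM in HPC.

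Selenocysteine is made on its tRNA after the tRNA has been charged with serine by Sars. Of 6 genes of its synthesis and insertion, 1 was higher and 3 were lower in each LP group, with medians of -0.08 and -0.17, beside the same shares of all genes. The gene that rose was Sephs2, which makes the selenium donor: it averaged 143 ± 16.9 FPKM in median LP and 131 ± 6.46 FPKM in early LP, against 55.5 ± 3.07 FPKM in HPC, at edgeR log2 fold changes of 1.44 ± 0.07 (adjusted p = 3.22e-09) and 1.30 ± 0.07 (adjusted p = 8.42e-09).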
